A study of Homo sapiens with 19 samples.

Results

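The angiomotin family (AMOT, AMOTL1 and AMOTL2), the YAP binder PTPN14 and FRMD6 were followed in HepG2 cells depleted of YAP, TAZ or both. These 5 genes were chosen by symbol, each was measured by 1 probe set, and all 5 were found among the 25579 genes of the table. HepG2 is an established human liver cancer cell line, so every group shares the background of 1 line. The cells were transiently transfected with small interfering RNAs (siRNAs), which direct the degradation of a matching mRNA, and total RNA was taken after 24 h and hybridised to Affymetrix arrays. YAP is encoded by YAP1 and TAZ by WWTR1, and each was targeted with 2 separate siRNAs. The 19 arrays form 7 groups. Groups of 3 arrays carry RNA from cells given a nonsense siRNA (labelled allstar, called control here), siYAP1, siYAP2, siTAZ2 or the pair siTAZ2_siYAP1, and groups of 2 arrays carry siTAZ3 or the pair siTAZ3_siYAP2. A single siRNA was used at 20 nM and a pair at 40 nM in total, while the control dose can be read from the labels as either. The siRNA groups keep part of the target mRNA, so they are depleted cells and not null cells. Since no label ties replicates to separate cultures, the tests see only how these samples scatter, and part or all of that scatter may be technical.

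Angiomotins are scaffold proteins of tight junctions and the actin cytoskeleton. They bind YAP and TAZ through short proline-rich motifs that fit the WW domains of the co-activators, hold them in the cytoplasm or at the junction, and also bring in the LATS kinases that phosphorylate them. AMOTL2 is itself known as a target gene of YAP and TAZ with the TEAD DNA-binding factors. PTPN14 is a tyrosine phosphatase with a FERM domain that binds the WW domains of YAP in the same way as the angiomotins, and FRMD6 is a FERM-domain protein related to Expanded, which acts upstream of the Hippo kinases in Drosophila.

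The promoters of AMOTL2 and PTPN14 are shown because these were the members whose differences passed the test. RefSeq windows of 300 bases (250 before and 50 after the start, build GRCh38.p14, read on the strand of the gene) were matched by symbol for all 5 members, with 2 windows for AMOTL2 and 1 for each other member. They were searched for the core of the TEAD motif, GGAATG, and its reverse complement CATTCC, which do not overlap with another searched motif. The letters were found in 2 of the 6 member windows, and in 4928 of the 35116 windows of the table, or 14.0%. In the second AMOTL2 window (chr3:134374398-134374697, minus strand) the first base of CATTCC lies 69 bases upstream of the start, and in the PTPN14 window (chr1:214551553-214551852, minus strand) 200 bases upstream. Of the 2 AMOTL2 windows only the one with a match is printed. Capitals mark the match.
AMOTL2: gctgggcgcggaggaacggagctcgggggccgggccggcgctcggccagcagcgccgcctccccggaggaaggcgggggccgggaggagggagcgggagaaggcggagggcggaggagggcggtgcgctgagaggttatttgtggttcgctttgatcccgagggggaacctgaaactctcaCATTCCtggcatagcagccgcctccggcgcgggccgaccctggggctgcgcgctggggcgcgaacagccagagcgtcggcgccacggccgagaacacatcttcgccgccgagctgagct
PTPN14: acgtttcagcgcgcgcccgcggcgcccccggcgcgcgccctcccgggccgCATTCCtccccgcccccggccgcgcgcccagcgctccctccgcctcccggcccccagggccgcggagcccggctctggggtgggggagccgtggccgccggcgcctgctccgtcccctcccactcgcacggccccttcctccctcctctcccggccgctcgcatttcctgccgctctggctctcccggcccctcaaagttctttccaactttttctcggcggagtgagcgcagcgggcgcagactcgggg
The letters are not in the other AMOTL2 window (chr3:134375368-134375667) or in the windows of AMOT (chrX:112840782-112841081), AMOTL1 (chr11:94768106-94768405) and FRMD6 (chr14:51488878-51489177). A match describes the sequence and was not tested as a binding site.

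Values are log2 RMA values, on which a difference of 1 is a doubling, and all 19 arrays hold the same set of values with a median of 4.83. Both targets were down in every group that received their siRNA: YAP1 was at 9.84 ± 0.029 (SD, n = 3) in control and between 7.11 and 7.74 in the 4 groups with a YAP siRNA, and WWTR1 was at 9.54 ± 0.062 (SD, n = 3) in control and between 6.29 and 7.20 in the 4 groups with a TAZ siRNA. Hepatocyte markers were high (7 of 7 measured, with medians over the arrays from 10.7 to 13.5) and the 4 endothelial markers lay between 3.92 and 4.25. Of the markers of other cell types, LYZ (13.14), COL1A1 (6.59) and KRT14 (5.47) were above the array median. The array labelled siTAZ2 replicate 3 stood apart, with a median correlation of 0.9866 with the others against at least 0.9927 for every other array, so results are also given without it. The control and YAP arrays had been deposited once before, unlike those with a TAZ siRNA. Where a TAZ or combined group is set against control or YAP groups, the siRNA and the deposit cannot be told apart. Where a pair is set against single siRNAs, the added siRNA and the higher total dose (40 nM against 20 nM) cannot be told apart. In bulk RNA, fewer cells of a type and less RNA per cell cannot be told apart either.

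AMOTL2 fell when YAP and TAZ siRNAs were combined, with both pairs, and was lowest with siTAZ3_siYAP2. On the control arrays it read 6.10, 6.09 and 6.20. With siTAZ2_siYAP1 it read 5.82, 5.44 and 5.70, and with siTAZ3_siYAP2 it read 5.31 and 5.40. All 5 combined arrays lay below all 3 control arrays, and the lower pair did not overlap with the other pair. The group means of the single siRNAs lay between, with arrays at 5.98, 5.74 and 5.76 with siYAP1, at 5.99, 5.90 and 5.85 with siYAP2, at 6.14, 5.97 and 5.84 with siTAZ2, and at 6.08 and 5.77 with siTAZ3. Both YAP groups and the siTAZ3 group lay wholly below control, the higher siTAZ3 array by a narrow margin, while the siTAZ2 group overlapped with it.

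Against control, AMOTL2 fell by 0.48 with siTAZ2_siYAP1 (SE 0.11, 95% interval -0.71 to -0.25, limma adjusted p = 0.0279), to 71.9% of the control level. It fell by 0.78 with siTAZ3_siYAP2 (SE 0.12, 95% interval -1.04 to -0.52, limma adjusted p = 0.00142), to 58.3%. Of the reference targets, ANKRD1 went from 8.82 in control to 5.03 and 4.88 in the combined groups, CCN1 from 6.77 to 5.02 and 5.28, and CCN2 from 8.75 to 6.77 and 7.91. The CCN2 difference with siTAZ3_siYAP2, -0.84 (limma adjusted p = 0.158), is close in size to that of AMOTL2. Without siTAZ2 replicate 3, an array in neither group, this CCN2 difference was the same and passed (limma adjusted p = 0.000120). For the mean of both pairs AMOTL2 fell by 0.63 (SE 0.097, limma adjusted p = 0.00172), and this call held whichever of the 19 arrays was left out (adjusted p up to 0.0165). The call for siTAZ2_siYAP1 alone was lost when any 1 of the 3 control arrays, replicate 2 or replicate 3 of siTAZ2_siYAP1 was left out (adjusted p up to 0.143), and with an intensity trend in the test (adjusted p = 0.0592).

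None of the single siRNAs gave a called change of AMOTL2. The differences from control were -0.31 with siYAP1 (SE 0.11, limma adjusted p = 0.322), -0.21 with siYAP2 (SE 0.11, adjusted p = 0.497), -0.15 with siTAZ2 (SE 0.11, adjusted p = 0.676) and -0.20 with siTAZ3 (SE 0.12, adjusted p = 0.746). A miss of the threshold does not show that a single siRNA left AMOTL2 as it was. The 2 siRNAs to one target gave values close to one another, with a difference of -0.09 between siYAP1 and siYAP2 (limma adjusted p = 0.818) and of 0.06 between siTAZ2 and siTAZ3 (adjusted p = 0.969).

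Combined knockdown was then set against the single knockdowns. AMOTL2 was lower with the pairs than with the TAZ siRNAs alone, a comparison within 1 deposit that also changes the total siRNA dose. The difference was -0.45 (SE 0.085, 95% interval -0.64 to -0.27, limma adjusted p = 0.0196), which leaves 73.0% of the level. Against the YAP siRNAs alone the difference was -0.37 (SE 0.081, limma adjusted p = 0.0247), leaving 77.5%. Either call depended on a few arrays: the first was lost without siTAZ3 replicate 1 (adjusted p = 0.120) or either siTAZ3_siYAP2 array and when only these 4 groups were fitted (adjusted p = 0.245), and the second on omitting any of 6 arrays, siYAP1 replicate 1, siYAP2 replicate 1 or 2, siTAZ2_siYAP1 replicate 2 or either siTAZ3_siYAP2 array (adjusted p up to 0.0910), or with the trend (adjusted p = 0.0540). For the separate pairs, adding siYAP1 to siTAZ2 gave -0.33 (SE 0.11, adjusted p = 0.397) and adding siYAP2 to siTAZ3 gave -0.58 (SE 0.13, adjusted p = 0.0782; 0.0332 when siTAZ2 replicate 3 is left out). The test of whether a YAP siRNA did more on top of a TAZ siRNA than alone gave -0.19 (SE 0.13, 95% interval -0.46 to 0.08, adjusted p = 0.836), so a larger effect in TAZ-depleted cells was not shown for AMOTL2. The difference of 0.30 between the pairs (SE 0.12, adjusted p = 0.332) was not called.

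**Figure D1:**
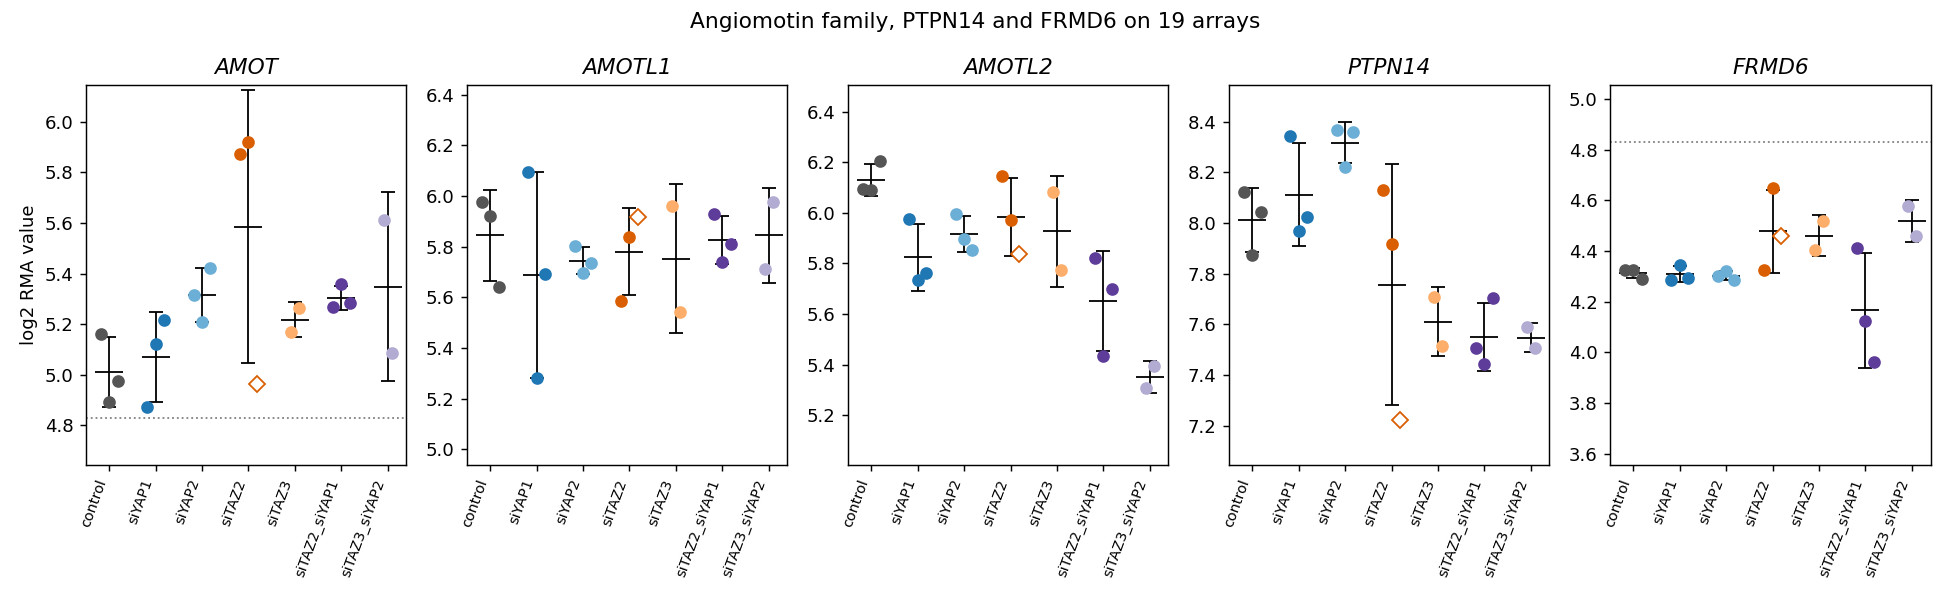
Log2 RMA value (vertical axis, each panel spanning the same range) of the 5 genes on each of 19 arrays by siRNA group; points are arrays, horizontal marks and bars are group means ± SD, the open diamond is the array labelled siTAZ2 replicate 3, and the dotted line is the array median of 4.83. AMOTL2 steps down to the combined groups (5.65 and 5.35 against 6.13 in control), PTPN14 is lower in the combined groups than with YAP siRNAs, AMOTL1 stays within 5.28 to 6.10, and FRMD6 lies under the dotted line throughout.

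PTPN14 was lower with both siRNA pairs than with the YAP siRNAs alone. It read 8.34, 7.97 and 8.03 with siYAP1 and 8.37, 8.22 and 8.36 with siYAP2, against 7.50, 7.44 and 7.70 with siTAZ2_siYAP1 and 7.59 and 7.51 with siTAZ3_siYAP2. All 5 combined arrays lay below all 6 YAP arrays. The difference was -0.67 (SE 0.13, 95% interval -0.94 to -0.39, limma adjusted p = 0.0117), a 1.59-fold lower level. This comparison crosses the deposits, and the call was lost only without siTAZ3_siYAP2 replicate 2 (adjusted p = 0.0673) when each array was left out in turn.

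In the other groups PTPN14 read 8.12, 7.87 and 8.04 with control siRNA, 8.13, 7.92 and 7.22 with siTAZ2 and 7.71 and 7.51 with siTAZ3. Control arrays lay above every siTAZ3 array and every combined array, and the lowest value of all 19 was that of siTAZ2 replicate 3. The combined groups differed from control by -0.46 (SE 0.16, limma adjusted p = 0.177), which did not pass with all arrays and passed without siTAZ2 replicate 3 (adjusted p = 0.00711). Without that array each pair passed on its own against control, with adjusted p = 0.0150 for siTAZ2_siYAP1 (difference -0.46) and 0.0299 for siTAZ3_siYAP2 (difference -0.47). That array is in neither group, so the differences are the same with and without it, and the SE for siTAZ2_siYAP1 went from 0.17 to 0.11 because the pooled spread was smaller.

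The TAZ siRNAs alone left PTPN14 at a difference from control of -0.26 with siTAZ2 (adjusted p = 0.626; 0.01 without siTAZ2 replicate 3, adjusted p = 0.990) and -0.40 with siTAZ3 (adjusted p = 0.577). With the YAP siRNAs alone the differences were 0.10 (adjusted p = 0.941) and 0.31 (adjusted p = 0.595). Within the deposit of the TAZ arrays the pairs differed from the TAZ siRNAs by -0.13 (SE 0.14, limma adjusted p = 0.794), and by -0.27 without siTAZ2 replicate 3 (SE 0.087, adjusted p = 0.202). Adding siYAP1 to siTAZ2 gave -0.21 (adjusted p = 0.746) with all arrays and -0.47 (SE 0.12, adjusted p = 0.178) without that array. None of these within-deposit differences of PTPN14 was called, with or without siTAZ2 replicate 3, but that array sets their size.

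**Figure D2:**
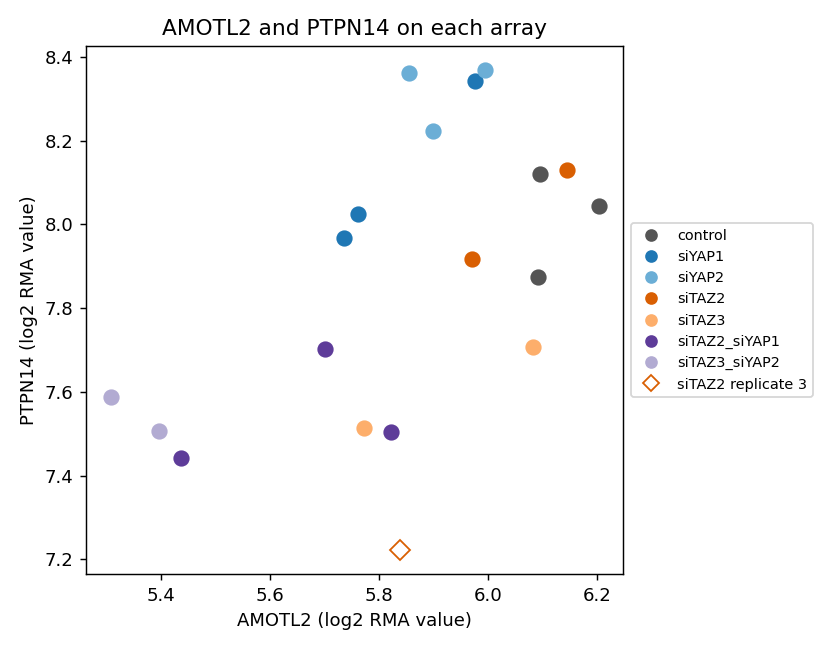
PTPN14 (vertical axis) against AMOTL2 (horizontal axis), both as log2 RMA values, with 1 point per array, coloured by group. The 5 combined arrays lie at the lower left (AMOTL2 from 5.31 to 5.82, PTPN14 from 7.44 to 7.70), the control arrays at the right, and the YAP arrays at the top, where PTPN14 runs from 7.97 to 8.37. The lower left is not particular to the pairs. The siTAZ3 replicate 2 array lies within both ranges (AMOTL2 5.77, PTPN14 7.51). The siTAZ2 replicate 3 array lies just outside them (AMOTL2 5.84, PTPN14 7.22).

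AMOT, the founding member of the family, gave no called difference with all arrays, and its values turn on 1 array. It read 5.16, 4.89 and 4.98 in control, and 5.87, 5.92 and 4.96 with siTAZ2, the last being the array that stood apart. The first 2 siTAZ2 arrays are the highest of all 19 for AMOT, and the third lies within the control range. AMOT values start at 4.87, near the array median of 4.83, which limits what its differences can show. The siTAZ2 difference from control was 0.57 (SE 0.20, 95% interval from 0.15, limma adjusted p = 0.187) with all arrays and 0.89 (SE 0.13, adjusted p = 0.000751) without siTAZ2 replicate 3. Without it, AMOT also differed between siTAZ2 and siTAZ3, by 0.68 (adjusted p = 0.0120, against 0.37 and adjusted p = 0.739 with all arrays). That comparison is within 1 deposit and sets an siRNA against another to the same target, and siTAZ3 read 5.17 and 5.27.

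With the YAP siRNAs AMOT read 4.87, 5.12 and 5.22 (siYAP1) and 5.32, 5.21 and 5.42 (siYAP2). With the pairs it read 5.27, 5.36 and 5.28 (siTAZ2_siYAP1) and 5.61 and 5.08 (siTAZ3_siYAP2). The siYAP2, siTAZ3 and siTAZ2_siYAP1 arrays lay wholly above control, but none of these differences passed (0.31 with limma adjusted p = 0.690, 0.21 with 0.931 and 0.29 with 0.721). For the mean of both pairs the difference from control was 0.32 (SE 0.18, limma adjusted p = 0.583). All 6 group means lay above the control mean of 5.01, which rests on 3 arrays that all 6 share.

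AMOTL1, which like AMOT binds YAP at junctions, showed the smallest range of group means of the 5 genes, 0.16, against a pooled SD within groups of 0.22. It read 5.98, 5.92 and 5.64 in control, 6.10, 5.28 and 5.69 with siYAP1, and 5.80, 5.70 and 5.74 with siYAP2. The other arrays lay between 5.54 (siTAZ3) and 5.98 (siTAZ3_siYAP2). Every pair of neighbouring groups in the order of means overlapped. Over the 17 comparisons the differences ran from -0.16 to 0.20, with limma adjusted p of at least 0.842. The 95% interval of combined against control was -0.33 to 0.31, so changes of the size seen for AMOTL2 with both pairs, 0.63 down, lie outside it for AMOTL1.

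FRMD6 was not shown to be expressed above background. Its values were below the array median on 19 of 19 arrays and the mean lay above that of 40.6% of all genes, whereas the other members were above the median on every array. It read 4.32, 4.33 and 4.29 in control, much as on the YAP arrays (4.29, 4.34 and 4.29 with siYAP1, 4.30, 4.32 and 4.29 with siYAP2). The arrays of the second deposit were more spread: 4.33, 4.65 and 4.46 with siTAZ2, 4.40 and 4.52 with siTAZ3, 4.41, 4.12 and 3.96 with siTAZ2_siYAP1, and 4.58 and 4.46 with siTAZ3_siYAP2. No FRMD6 difference passed; the largest, -0.35 between the pairs, had a limma adjusted p of 0.124 and passed only without siTAZ2_siYAP1 replicate 1 (adjusted p = 0.0136). At this level, differences of FRMD6 cannot be read as changes of its mRNA.

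The levels were also ordered over the 7 groups for each gene. AMOTL2 ran from siTAZ3_siYAP2 (5.35 ± 0.063, SD, n = 2) through siTAZ2_siYAP1 (5.65 ± 0.20, n = 3), siYAP1 (5.82 ± 0.13, n = 3), siYAP2 (5.92 ± 0.071, n = 3), siTAZ3 (5.93 ± 0.22, n = 2) and siTAZ2 (5.98 ± 0.15, n = 3) to control (6.13 ± 0.063, n = 3). Only the lowest neighbours in this order did not overlap. PTPN14 ran from 7.55 ± 0.058 (SD, n = 2) with siTAZ3_siYAP2 to 8.32 ± 0.082 (SD, n = 3) with siYAP2, and every neighbour overlapped with the next. In AMOT only siTAZ3 and siTAZ2_siYAP1 did not overlap as neighbours, and in FRMD6 only control and siTAZ3.

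**Figure D3:**
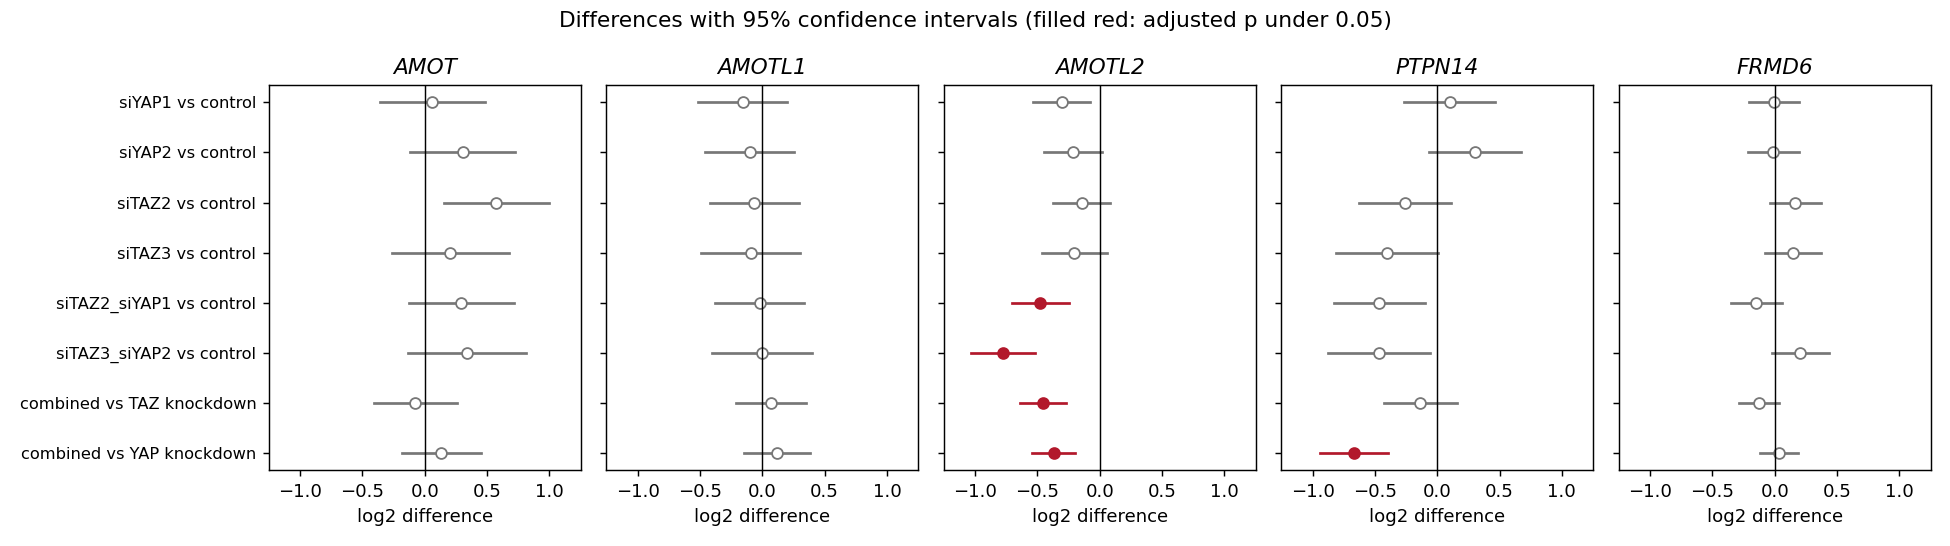
Log2 difference (horizontal axis) of the 5 genes in 8 comparisons, with limma 95% confidence intervals from the fit of all 19 arrays; filled red points have an adjusted p under 0.05. Filled points appear for AMOTL2 with both pairs against control and for combined against TAZ and YAP knockdown, and for PTPN14 in combined against YAP knockdown.

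Counts of members were set beside the share of all genes called in each limma comparison. Against control, 0 of 5 members passed with siYAP1, where 0.88% of all genes did (1 member at an unadjusted p under 0.05), 0 with siYAP2 (3.72% of genes, 0 members unadjusted), 0 with siTAZ2 (2.37%, 1 unadjusted) and 0 with siTAZ3 (1.16%, 0 unadjusted). With siTAZ2_siYAP1 1 of 5 passed (2.44% of genes) and with siTAZ3_siYAP2 1 of 5 (2.66%), in both cases AMOTL2. For the means over siRNAs, 0 of 5 passed in YAP knockdown (1.73%, 1 unadjusted), 0 in TAZ knockdown (1.97%, 1 unadjusted) and 1 in combined knockdown (2.59%). Without siTAZ2 replicate 3 these counts were 1 with siTAZ2 and in TAZ knockdown (AMOT) and 2 with each pair and in combined knockdown (AMOTL2 and PTPN14), while the shares of all genes rose to between 2.47% and 7.08%.

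Among the other comparisons, 1 of 5 members passed in combined against TAZ knockdown (0.747% of genes) and 2 in combined against YAP knockdown (2.24%). None passed for siYAP1 added to siTAZ2 (0.219%, 2 unadjusted), siYAP2 added to siTAZ3 (0.563%, 1 unadjusted), siYAP1 against siYAP2 (4.83%, 0 unadjusted) or siTAZ2 against siTAZ3 (0.813%, 0 unadjusted). The count was also 0 for 1 pair against the other (2.48%, 2 unadjusted) and for the test of unequal YAP siRNA effects (0.125%, 0 unadjusted). Counts of 0 among 5 genes are near these shares and are no result about the members.

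The 5 genes did not move as 1 group. Among their 10 pairwise correlations over the 19 arrays, which share normalization and groups, that of AMOTL2 and PTPN14 was 0.54 (0.61 over 18 arrays without siTAZ2 replicate 3, 0.53 over 7 group means). The other 9 lay between -0.28 and 0.28 over the 19 arrays, and between -0.25 and 0.33 over the 18. Over the 7 group means AMOTL2 and PTPN14 did not stand apart in size. There AMOTL1 and PTPN14 were at -0.52, and AMOT and FRMD6 at 0.40. Within the angiomotin family AMOT and AMOTL1 correlated with AMOTL2 at -0.11 and 0.11. These are descriptions over arrays of a few groups.

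The genes most like each member over the 19 arrays were found by Pearson correlation. Being the highest of all genes searched, their values are high partly through that choice and were not tested. AMOTL1 has partners at 0.87 and 0.88 although its group means range over 0.16, less than its SD within groups of 0.22. For AMOTL2 the closest genes were AJUBA (0.91), PKP4 (0.84) and EZR (0.78). AJUBA is a LIM-domain protein of junctions that inhibits LATS kinases, and PKP4 is an armadillo protein of cell junctions. EZR is a FERM-domain linker between membrane and actin. Without siTAZ2 replicate 3 AJUBA and PKP4 stayed, and HSPG2 (0.80) took the place of EZR. The group means of AJUBA were 9.02 ± 0.077 (SD, n = 3) in control, 8.36 ± 0.12 (SD, n = 3) with siTAZ2_siYAP1 and 8.001 ± 0.093 (SD, n = 2) with siTAZ3_siYAP2, which shows the values behind the correlation that chose it. For PTPN14 they were SLC7A6 (0.90), an amino acid transporter, CD55 (0.88), which protects cells from complement, and NT5C2 (0.86), a cytosolic nucleotidase. Without siTAZ2 replicate 3 the closest to PTPN14 were PKP2 (0.94), NT5C2 (0.92) and PTPRM (0.88), so SLC7A6 and CD55 gave way to others. Those of AMOT were CA14 (0.91), a carbonic anhydrase, NLGN4Y (0.83) and complement component C7 (0.82), of which CA14 alone stayed among the closest 3 without that array, and those of AMOTL1 were EDN3 (0.88), ICAM3 (0.87) and SCD5 (0.87). For FRMD6 the values were lower, with LAMB2 (0.71), FAM229B (0.71) and SLAIN1 (0.70). Of these, LAMB2 alone stayed among the closest 3 without siTAZ2 replicate 3.

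The partners of these proteins were described as 3 gene lists. Of 28 junction and polarity genes (26 measured), which form or regulate the complexes that angiomotins sit in, 1 passed as lower in YAP knockdown (1.73% of all genes passed in either direction), 1 as higher in TAZ knockdown (1.97%) and 3 as lower in combined knockdown (2.59%), all against control. In combined against TAZ knockdown 2 were lower (0.747%). LIN7C was among the genes called in each of these 4 comparisons. Against control it went opposite ways with the pairs. It was higher with siTAZ2_siYAP1 (0.35, limma adjusted p = 0.00937) and lower with siTAZ3_siYAP2 (-1.01, limma adjusted p = 1.3e-06). Without siTAZ2 replicate 3 the YAP count was 1 higher and 3 lower, and the other 3 counts were as before. The shares of all genes called without that array were larger, at 4.47%, 4.69%, 6.17% and 1.29% in the same order of comparisons. The list medians were 0.02, -0.03, -0.08 and -0.06 in these 4 comparisons, against 0.00, 0.00, 0.00 and 0.01 over all genes. Of 9 genes that act on angiomotin turnover, 0 passed in YAP knockdown, 1 in TAZ knockdown (RNF146, higher), 0 in combined knockdown and 1 in combined against TAZ knockdown (NEDD4, lower). Without siTAZ2 replicate 3 there were 2 higher in YAP knockdown (RNF146 and PRKAA1) and 1 higher and 1 lower in combined knockdown (RNF146 and NEDD4). Of 10 relatives of PTPN14 and FRMD6 with a FERM domain, 1 passed in these 4 comparisons, PTPN21 as lower in combined knockdown, with and without that array.

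Between the 2 siRNAs to YAP1, 3 of the 26 junction and polarity genes, 3 of the 9 turnover genes and 2 of the 10 FERM relatives differed, where 4.83% of all genes did. LIN7C, a scaffold of the PALS1 polarity complex, fell by 2.30 with siYAP2 (limma adjusted p = 1.91e-11) and rose by 0.53 with siYAP1 (adjusted p = 0.000519), although YAP1 was at 7.13 and 7.11. NEDD4, a ubiquitin ligase that acts on angiomotins, likewise fell by 0.69 with siYAP2 (adjusted p = 0.0188) and rose by 0.77 with siYAP1 (adjusted p = 0.0249), and siYAP1 differed from siYAP2 by 1.46 (adjusted p = 1.95e-05). WWC1 (KIBRA), an upstream activator of the Hippo kinases, fell by 0.81 with siYAP2 (adjusted p = 0.000724) and was at -0.05 with siYAP1, a difference between the siRNAs of 0.77 (adjusted p = 0.00107). PTPN21, the close relative of PTPN14, fell by 0.76 with siYAP2 (adjusted p = 0.0207) and was at 0.00 with siYAP1, a difference of 0.76 (adjusted p = 0.0163).

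Means over siRNAs for these 4 genes therefore join unlike values. LATS2, the kinase that angiomotins bring to YAP, was at -0.39 with siTAZ2_siYAP1 (adjusted p = 0.0201) and -0.24 with siTAZ3_siYAP2 (adjusted p = 0.301), and fell by 0.32 in combined knockdown (SE 0.076, limma adjusted p = 0.0366). It was also lower with the pairs than with the TAZ siRNAs, with a difference of -0.31 (adjusted p = 0.0483) within 1 deposit. RNF146, a ubiquitin ligase that acts with tankyrases on angiomotins, rose by 0.57 in TAZ knockdown (SE 0.11, limma adjusted p = 0.0133), with group means of 5.98 in control, 6.39 with siTAZ2 and 6.71 with siTAZ3. It was also at 6.38 and 6.35 with the YAP siRNAs, and at 6.11 with siTAZ2_siYAP1 and 6.49 with siTAZ3_siYAP2. Of the TAZ siRNAs, siTAZ3 passed on its own (0.73, limma adjusted p = 0.0143) and siTAZ2 did not (0.41, limma adjusted p = 0.118).

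**Figure D4:**
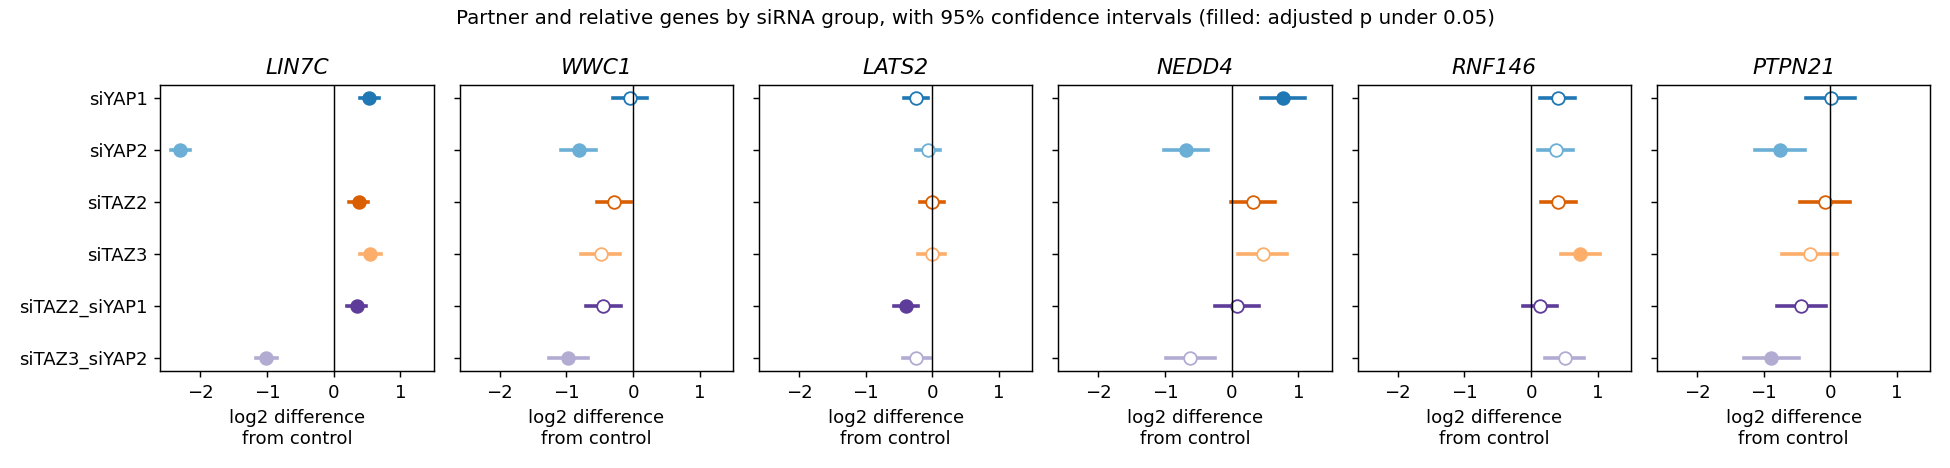
Log2 difference from control (horizontal axis) of 6 partner and relative genes in the 6 siRNA groups, with limma 95% confidence intervals from the fit of all 19 arrays; filled points have an adjusted p under 0.05. LIN7C and NEDD4 point to opposite sides with siYAP1 and siYAP2 (0.53 and -2.30, 0.77 and -0.69), and WWC1 and PTPN21 are lower with siYAP2 but near 0 with siYAP1.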

How the data were processed

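Biotinylated cRNA of 19 HepG2 samples was measured on Affymetrix arrays, as the labels' protocols state. The deposited values are log2 expression values that the authors computed by RMA (background correction, quantile normalization and summary per probe set), per the submitters' processing notes. For its version and the probe-set definition the sources used here give nothing. The sorted values are identical on all arrays (3.17 to 13.78, median 4.83), as joint quantile normalization makes them, so a shift of all genes would be removed. Arrays have no read depth, and their number limits the precision.

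Of 25582 probe sets, 24244 have 1 gene symbol in the platform annotation, and 1338 have none or more than 1. Through RefSeq gene identifiers 24195 were named, and 1 probe set per symbol (the higher mean) left 25579 genes. All 19 arrays entered 1 linear model (limma 3.58.1, R 4.3.3) with a mean for each group, without a filter on dim genes or a detection call, and 17 comparisons were tested with Benjamini-Hochberg adjustment over all genes and a threshold of 0.05. A knockdown named by its target, or as combined, averages 2 siRNAs or pairs. SE is limma's moderated standard error and SD the spread within a group. The fit was tested on simulated data.

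Named are the 5 members, the targets, CCN1, CCN2 and ANKRD1 as reference, list genes that passed in the 3 knockdowns against control or in combined against TAZ knockdown (at most 4 per list and comparison), and the 3 genes most correlated with each member, leaving out non-coding RNA. The members and lists were chosen with earlier results of these data known. List members and markers without a matching named probe set were not used here. Alternatives were an intensity trend, leaving out the dimmest 30% of genes, median centring, fitting only the groups compared, array weights, a replicate block and leaving out each array. Same-numbered samples were not shown to deviate together (see the closing part on processing).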

Additional observations from a re-analysis of the deposited data

Results flagged for a closer look

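PTPN14 is listed because its mean differences with siYAP2 alone and with siYAP2 added to siTAZ3 have opposite signs. All 3 siYAP2 arrays lay above the control mean (mean difference 0.31, from 0.21 to 0.36), and both siTAZ3_siYAP2 arrays lay below the siTAZ3 mean (mean difference -0.06, from -0.10 to -0.02). The second difference minus the first is -0.37 on the log2 scale. The siTAZ3_siYAP2 array at 7.59 lies within the siTAZ3 range of 7.51 to 7.71, and leaving out 1 array moves the second difference between -0.16 and 0.03, so no direction is shown for it. This difference for siYAP2 was not tested on its own. Over both YAP siRNAs the test of unequal effects gave -0.34 for PTPN14 (SE 0.20, limma adjusted p = 0.812), which did not pass. Neither difference passed against its own reference (adjusted p = 0.595 and 0.999).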

How the results depend on the processing

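Median centring could change nothing, since the sorted values are identical on all arrays, and is not counted here. Of 2040 results of members under the other alternatives, 2002 stayed on their side of the threshold, 20 gained and 18 lost the call, and no called difference changed sign; 56 sign changes were between differences that both missed the threshold. Members called (of 5) with array weights were 1 with siTAZ2, 1 in TAZ knockdown, 2 with siTAZ2_siYAP1, 2 in combined knockdown, 4 for siYAP1 added to siTAZ2 and 1 for siTAZ2 against siTAZ3. With only the groups compared in the fit they were 2 with siTAZ2_siYAP1, 2 in combined knockdown and 0 in combined against TAZ knockdown (AMOTL2 adjusted p = 0.245), and with an intensity trend 0 with siTAZ2_siYAP1 (AMOTL2 adjusted p = 0.0592) and 1 in combined against YAP knockdown (AMOTL2 adjusted p = 0.0540). Leaving out 1 array gave 0 to 1 called members with siTAZ2, in TAZ knockdown, for siYAP2 added to siTAZ3, in combined against TAZ knockdown, for siTAZ2 against siTAZ3 and between the pairs, 1 to 2 with siTAZ3_siYAP2 and in combined knockdown, and 0 to 2 with siTAZ2_siYAP1 and in combined against YAP knockdown. Except where given with the results, the cause was not tested. Over all genes, array weights multiplied the calls of a comparison by 1.40 to 7.47 and leaving out siTAZ2 replicate 3 by 1.73 to 5.31, while fitting only the groups compared changed them by 0 to 2.07 times. Array weights set siTAZ2 replicate 3 to 0.128 and siTAZ2 replicate 2 to 3.26, and their estimation stopped before it converged, so counts under them are less firm.

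Replicate numbers are shared by the groups. Of 22 same-numbered pairs of arrays, 4 had a correlation of deviations over 0.1 (lowest -0.28, median 0.011, highest 0.23). A pairing by number was not shown, and these values cannot exclude one. In a group of 2 arrays the deviations mirror each other. With a replicate block within each deposit the counts of called members stayed as they were in each of the 17 comparisons, for example 1 with siTAZ3_siYAP2 (AMOTL2 adjusted p = 0.00330) and 2 in combined against YAP knockdown, and calls over all genes changed by 0.875 to 1.32 times. Values near or below the array median limit what can be said of FRMD6 and, to a lesser degree, of AMOT.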
